A study of Arabidopsis thaliana with 12 samples.

Results

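Gibberellin deficiency was examined in Arabidopsis shoots that lack the chromatin remodeler BRM. The comparison sets ga1-3/brm-1 against brm-1, with 3 ATH1 arrays per genotype, which are 6 of the 12 arrays of the series. The other 6 arrays, 3 of ga1-3 and 3 of the wild type (wt), give the effect of ga1-3 where BRM is present, and they share no array with the first comparison. RNA came from shoots of 18-d-old seedlings of the Col-0 ecotype grown on ½ MS medium under long days. The ga1-3 allele had been introgressed into Col-0. Plants homozygous for brm-1 are sterile, so both lines with brm-1 were picked by genotyping from segregating progeny, the double mutant after a cross of ga1-3 with heterozygous brm-1 plants. Seeds carrying ga1-3 were imbibed in GA3 and washed before sowing. The same is not stated for brm-1, so this step and the ga1-3 mutation cannot be told apart.

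GA1 encodes ent-copalyl diphosphate synthase, which makes the first committed step of gibberellin (GA) synthesis, and ga1-3 is a strong dwarf that hardly makes the hormone. Late steps are carried by GA 20-oxidases and GA 3-oxidases. Active GAs bind GID1 receptors, which lead DELLA proteins such as GAI and RGA to destruction. In wild-type plants low GA is known to raise transcripts of the late synthesis enzymes and of receptors, a feedback that runs through DELLAs. BRM is an ATPase of SWI/SNF complexes, which move nucleosomes. The study reports that plants without BRM are themselves partly GA deficient, though less so than the GA synthesis mutant. That was measured in older plants of another null line grown in soil, and GA levels of the present shoots are not given. The drop in GA may thus be smaller from brm-1 to ga1-3/brm-1 than from wt to ga1-3. The part of this starting level in differences between the comparisons was not tested.

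The values are log2 hybridization signals, so a difference of 1 is 2-fold. Every log2 fold change is given ± standard error (SE), and a probe set was called when its limma p, adjusted by Benjamini-Hochberg over all probe sets, was under 0.05 and its change over 1.5-fold. Near background stands for a genotype whose mean signal is under 4.70, which is the 26th percentile of all signals in the table. A fold against such a level rests on a signal that is little more than background and may understate the change.

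BRM itself was near background on all 6 arrays, with signals of 2.72, 3.01 and 2.92 in ga1-3/brm-1 and 2.78, 3.01 and 2.87 in brm-1, against means of 8.14 ± 0.19 (SD, n = 3) in ga1-3 and 7.88 ± 0.06 (SD, n = 3) in wt. No probe set used here carries the name GA1, so the labels for ga1-3 have no direct check of that kind. As shoot markers, the antenna gene LHCA1 gave 13.80, 13.76 and 13.73 in ga1-3/brm-1 and 14.36, 14.30 and 14.05 in brm-1. Of 7 root markers only PYK10, a β-glucosidase abundant in roots, was named here. Its signals were 12.69, 12.18 and 12.41 in ga1-3/brm-1 and 9.61, 10.79 and 10.29 in brm-1, a difference of 2.20 ± 0.31 (adjusted p = 0.00206), and its difference between ga1-3 and wt was 1.71 ± 0.31. The part of root tissue in the results was not tested. The brm-1 arrays were the least alike of any genotype, with replicate 3 apart from replicates 1 and 2: on the first component of the deviations from genotype means the ga1-3/brm-1 arrays lay between -5.62 and 6.86 and the brm-1 arrays between -19.98 and 37.78. The 3′ minus 5′ signal of the actin control, which grows as RNA is shorter, spanned 5.60 to 5.71 in ga1-3/brm-1 and 5.80 to 5.83 in brm-1, and that of GAPDH 2.66 to 2.87 in ga1-3/brm-1 and 3.05 to 3.14 in brm-1. The part of RNA quality in the results was not tested.

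In shoots without BRM, 835 probe sets (4.98%) were higher and 633 (3.78%) lower in ga1-3/brm-1 than in brm-1, together 1468 of 16764 (8.76%). Of the rises 421 were over 2-fold and 124 over 4-fold, and of the falls 243 and 32. The lower genotype was near background in 249 of the rises and 165 of the falls, and both genotypes were in 97 and 63. The rises had a median of 1.01 and the falls of -0.88, against -0.03 over all probe sets. Leaving out 1 array at a time gave between 1007 calls (without brm-1 replicate 1) and 1579 (without brm-1 replicate 3), and 1175 of the 1468 were also called without brm-1 replicate 3. These are bulk shoots, in which fewer cells of a type and less RNA per cell cannot be told apart. Of the called probe sets 547 rises and 569 falls have 1 gene name. Of the 9267 probe sets to which the platform table gives 1 gene, 7.97% were called (4.40% up, 3.57% down). Among the 1671 named only through tables of genes that the study had called against the wild type it was 22.6% (8.32% up, 14.2% down), and the counts of lists below are to be read against these shares. In ga1-3 against wt 253 of these 1671 were called up and 333 down, so list counts in that comparison depend on how members were named.

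Of 5 measured genes of GA synthesis 4 rose. GA20OX2 (AT5G51810), a GA 20-oxidase, gave 8.71, 8.68 and 8.61 on the ga1-3/brm-1 arrays and 3.65, 3.16 and 3.21 on the brm-1 arrays. These sets of arrays lie far apart, with brm-1 near background, and the difference was 5.33 ± 0.16 (adjusted p = 7.53e-08). By RT-qPCR the study found this gene higher in brm-1 than in the wild type. It reports that arrays and RT-qPCR disagreed for GA20OX2 alone among the known GA genes, so the brm-1 level on the arrays is uncertain. GA3OX1 (AT1G15550), the GA 3-oxidase that makes bioactive GA, gave 7.36, 7.39 and 7.95 in ga1-3/brm-1 and 2.81, 2.86 and 2.80 in brm-1, a difference of 4.74 ± 0.18 (adjusted p = 2.54e-07). Both rose in ga1-3 against wt too, by 4.50 ± 0.16 and 3.94 ± 0.18, in shoots that have BRM. The interaction, which is the log2 fold change without BRM minus that with BRM, was 0.83 ± 0.23 for GA20OX2 (adjusted p = 0.0519) and 0.80 ± 0.25 for GA3OX1 (adjusted p = 0.0745).

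GA20OX1, another 20-oxidase, gave 4.87, 5.07 and 5.29 in ga1-3/brm-1 and 2.68, 2.76 and 3.16 in brm-1. Its arrays did not overlap and it rose by 2.21 ± 0.29 (adjusted p = 0.00147), beside 3.79 ± 0.29 in ga1-3 against wt. The interaction was -1.58 ± 0.41 (adjusted p = 0.0393), but brm-1 and wt were near background and its call held only in the fit without ga1-3 replicate 3 (-1.98 to -1.34 over the 12 fits that each leave out 1 array). GA3, the ent-kaurene oxidase of the early pathway, gave 8.80, 8.59 and 8.98 in ga1-3/brm-1 and 7.64, 7.99 and 7.80 in brm-1. It rose by 0.98 ± 0.13 (adjusted p = 0.00132) here and had a difference of 0.21 ± 0.13 against wt, with an interaction of 0.77 ± 0.18 (adjusted p = 0.0273) that was called in 5 of those 12 fits, namely without wt replicate 3, ga1-3 replicate 3, ga1-3/brm-1 replicate 2, or brm-1 replicate 2 or 3 (0.67 to 0.87). GA20OX3 did not pass the test, at 1.14 ± 0.40 (adjusted p = 0.0815). Of 14 listed synthesis genes 5 were measured here, and 4 of these were called up. All 5 were named only through the study's tables, where 8.32% were called up. GAMT2, a methyltransferase that inactivates GA, was lower by 0.72 ± 0.14 (adjusted p = 0.00839), at signals near background in all 4 genotypes, and is the only inactivation gene of 9 listed that was measured.

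**Figure D1:**
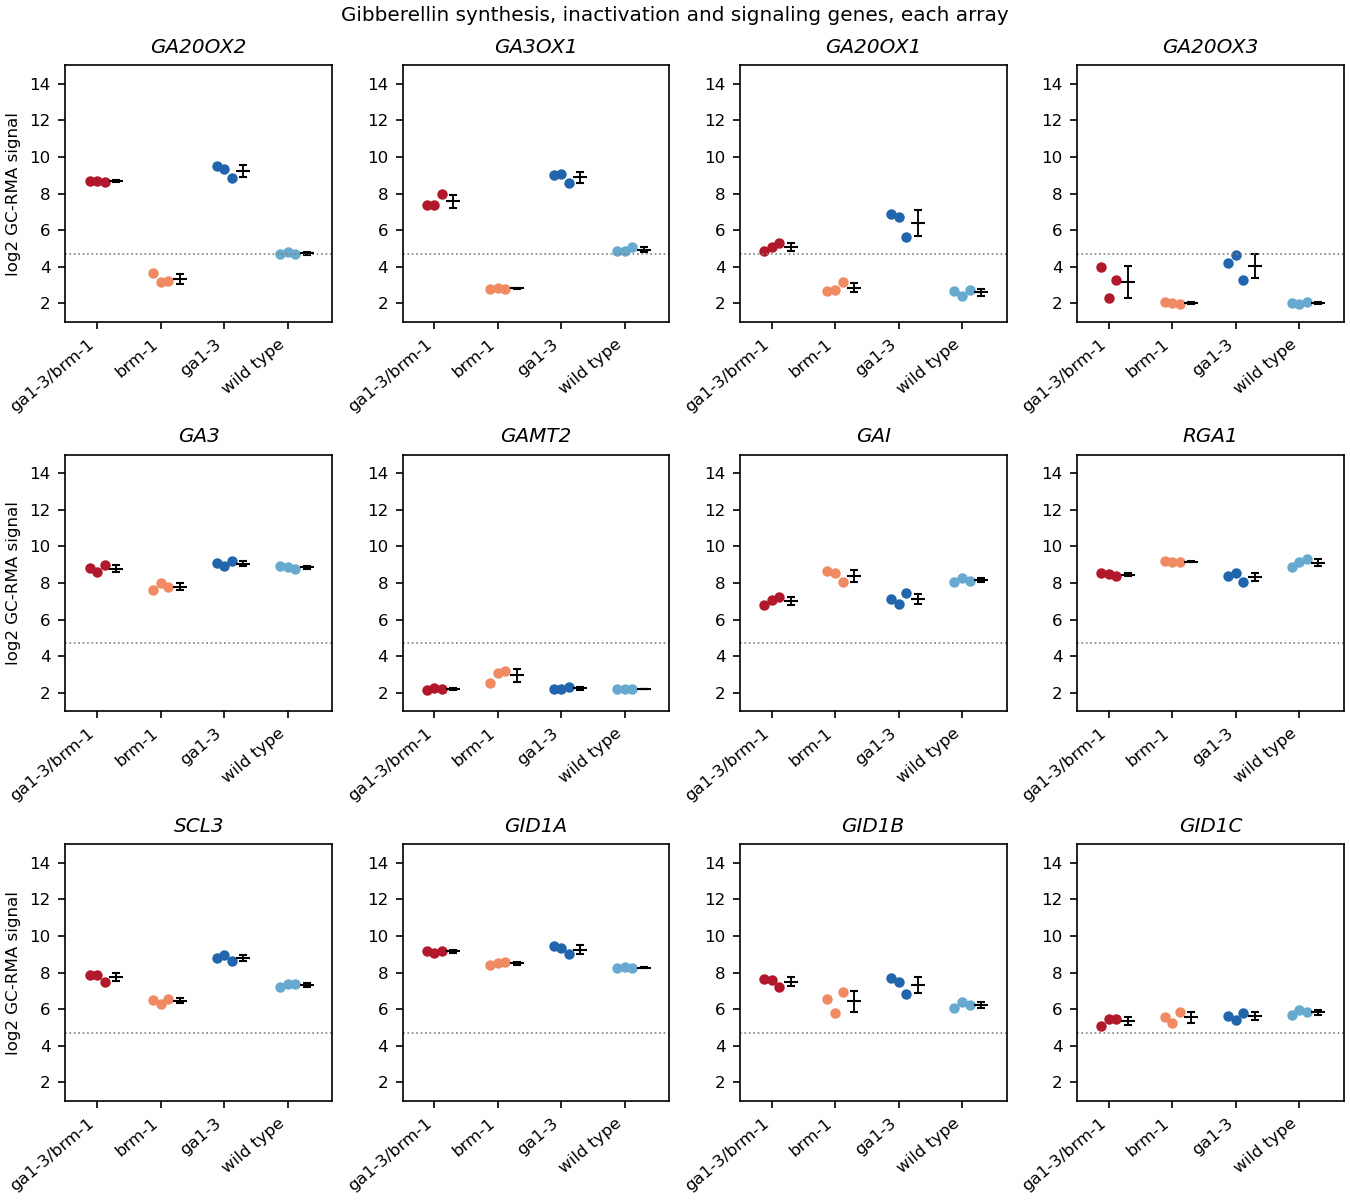
Log2 signal on each array for genes of gibberellin synthesis and signaling, by genotype, with mean ± SD (n = 3) and a dotted line at the near-background level of 4.70. GA20OX2 and GA3OX1 were near background in brm-1 and between 7.36 and 8.71 in ga1-3/brm-1.

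SCL3 and the receptor genes GID1A and GID1B rose, and the DELLA genes GAI and RGA1 fell. SCL3, a GRAS protein proposed to attenuate DELLAs, gave 7.88, 7.87 and 7.51 in ga1-3/brm-1 and 6.52, 6.29 and 6.55 in brm-1, a difference of 1.29 ± 0.13 (adjusted p = 0.000319). GID1A rose by 0.64 ± 0.11 (adjusted p = 0.00469). GID1B rose by 1.07 ± 0.29 (adjusted p = 0.0328). Without replicate 1 or 2 of ga1-3/brm-1, or replicate 1 or 2 of brm-1, its call was lost (0.76 to 1.31 over the 12 fits that each leave out 1 array). The third receptor, GID1C, gave -0.20 ± 0.18 (adjusted p = 0.505). The DELLA gene GAI gave 6.79, 7.09 and 7.22 in ga1-3/brm-1 and 8.64, 8.53 and 8.03 in brm-1, a difference of -1.37 ± 0.19 (adjusted p = 0.00179) with no overlap of arrays. RGA1, the DELLA RGA, gave 8.53, 8.50 and 8.36 in ga1-3/brm-1 and 9.19, 9.13 and 9.17 in brm-1, with no overlap, and fell by 0.70 ± 0.13 (adjusted p = 0.00744). The F-box genes SLY1 and SNE, which act in DELLA turnover, gave 0.15 ± 0.11 and 0.20 ± 0.28, and SPY, which modifies DELLA proteins, -0.17 ± 0.09, none past the test. Across GA signaling 3 of 9 measured genes rose and 2 fell, and the interaction was not called for any.

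The GASA genes, small cysteine-rich proteins known to answer GA, had 0 of 6 measured members up and 2 down, with a median of -0.36. GASA6 fell, at -0.68 ± 0.20 (adjusted p = 0.0447) and AT5G59845 at -0.70 ± 0.20 (adjusted p = 0.0397), but the GASA6 call held only in the fit without brm-1 replicate 3 (-0.96 to -0.48 over the 12 fits), and that of AT5G59845 only in those without wt replicate 1, ga1-3 replicate 3 or ga1-3/brm-1 replicate 3 (-0.93 to -0.47). AT2G14900 gave -0.88 ± 0.27 (adjusted p = 0.0549). Of the other genes the study names beside its arrays, OFP16 fell by 1.83 ± 0.20, with signals of 5.59, 5.89 and 6.38 in ga1-3/brm-1 and 8.04, 7.74 and 7.58 in brm-1. CYS2, a cystatin that inhibits cysteine proteases, gave 9.27, 9.69 and 9.68 in ga1-3/brm-1 and 7.70, 7.76 and 7.71 in brm-1 and rose by 1.83 ± 0.26, against 3.44 ± 0.26 in ga1-3 against wt. Its interaction was -1.62 ± 0.36 (adjusted p = 0.0245), lost without wt replicate 2 or 3, ga1-3 replicate 1 or 2, or replicate 1 of ga1-3/brm-1 or brm-1 (-1.92 to -1.43). LTP2, a lipid transfer protein, rose by 0.85 ± 0.24 (adjusted p = 0.0417) but its call held only without replicate 2 of ga1-3/brm-1, or replicate 2 or 3 of brm-1 (0.55 to 1.05).

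Among probe sets with 1 gene name, the largest rise was AOP3 (AT4G03050), a dioxygenase of glucosinolate side chains, with signals of 9.56, 9.45 and 10.32 in ga1-3/brm-1 and 2.81, 3.09 and 2.65 in brm-1. It rose by 6.92 ± 0.23 (adjusted p = 1.11e-07) and lies close to GA1 on chromosome 4. One probe set without a gene name rose further, by 7.54 ± 0.86 (adjusted p = 0.000719), with signals of 10.37, 9.44 and 9.97 in ga1-3/brm-1 and 1.91, 3.46 and 1.78 in brm-1. The next were AT2G17850 at 5.85 ± 0.57 and AT3G29970 at 5.50 ± 0.41, followed by GA20OX2, AT5G66985 at 5.26 ± 0.58, AT4G27654 at 5.19 ± 0.28 and GA3OX1. AT3G20370, which encodes a MATH domain protein, rose by 4.33 ± 0.50, AT4G33560 by 4.30 ± 0.45 and AT4G39675 by 4.28 ± 0.52. All 10 were near background in brm-1, 8 had their highest signal on ga1-3/brm-1 replicate 1, 4 were also called in ga1-3 against wt and 7 had a called interaction. The next gene below these 10 had a rise of 4.27 against 4.28 for the last of them.

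AT2G17850 is 1 of those 7. Its signals were 9.93, 7.19 and 7.20 in ga1-3/brm-1 and 2.29, 2.26 and 2.20 in brm-1, while its difference was 0.02 ± 0.57 between ga1-3 and wt (adjusted p = 0.991). The rise was between 4.94 and 6.31 in the 12 fits with 1 array left out. AT3G29970 gave 9.47, 7.50 and 7.61 in ga1-3/brm-1 and 2.64, 2.84 and 2.61 in brm-1, again with no overlap of arrays, and 0.10 ± 0.41 between ga1-3 and wt.

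**Figure D2:**
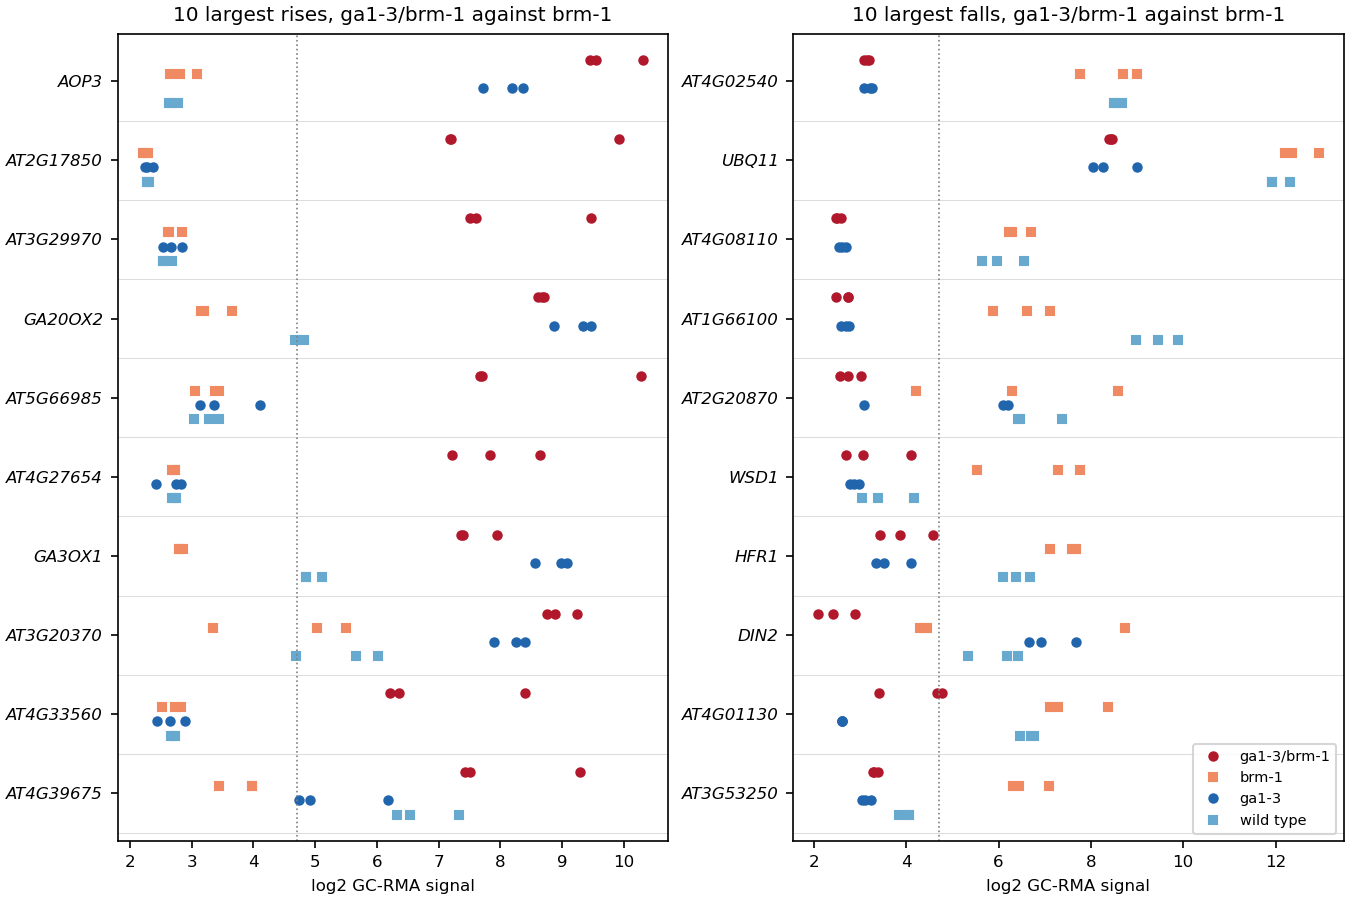
Log2 signal on each array for the genes with the largest rises and falls of ga1-3/brm-1 against brm-1, with rows of ga1-3/brm-1, brm-1, ga1-3 and wt arrays from top to bottom within each gene and a dotted line at the near-background level. For all 10 rises the brm-1 mean was near background (below 4.70), and for 9 of the 10 falls ga1-3/brm-1 was.

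A pair of hypoxia genes rose. HRA1, a transcription factor induced by hypoxia, gave 6.59, 5.74 and 5.08 in ga1-3/brm-1 and 2.86, 2.77 and 2.60 in brm-1, which is near background, and rose by 3.06 ± 0.35 (adjusted p = 0.000734). AT4G10270, a gene of the core hypoxia set, gave 10.50, 9.14 and 9.31 in ga1-3/brm-1 and 5.03, 6.38 and 4.74 in brm-1, and rose by 4.27 ± 0.55 (adjusted p = 0.00132). HRA1 had an interaction of 2.86 ± 0.50, called in all 12 fits. The interaction of AT4G10270, at 2.81 ± 0.77, held only without ga1-3 replicate 3 or brm-1 replicate 2 (2.38 to 3.37). The alcoholic fermentation gene PDC2 gave 0.23 ± 0.19 and the factor HRE1 -0.09 ± 0.41, neither called, so 2 of 6 measured hypoxia genes rose and 0 fell, with a median of 0.73.

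The largest fall was AT4G02540, which encodes a cysteine and histidine rich C1 domain protein, with signals of 3.09, 3.18 and 3.16 in ga1-3/brm-1 and 8.70, 9.01 and 7.76 in brm-1, a difference of -5.35 ± 0.25 (adjusted p = 1.74e-06). UBQ11, a polyubiquitin, fell by 4.07 ± 0.25, and its near-identical family members make that probe set uncertain. AT4G08110, a transposable element gene, fell by 3.89 ± 0.20. AT1G66100, a thionin (a small antimicrobial protein), gave 2.74, 2.74 and 2.48 in ga1-3/brm-1 and 6.63, 5.87 and 7.12 in brm-1, a difference of -3.88 ± 0.29. In ga1-3 against wt its difference was -6.76 ± 0.29. Its signal was near background in both ga1-3/brm-1 and ga1-3, which limits both falls, so the interaction of 2.88 ± 0.41 does not show in which shoots it fell more. WSD1, a wax ester synthase, fell by 3.57 ± 0.54, and its interaction of -2.91 ± 0.77 held only without ga1-3/brm-1 replicate 3 or brm-1 replicate 2 (-3.58 to -2.46). Its signal was near background in ga1-3/brm-1, ga1-3 and wt, as was that of AT3G53250, of the auxin-induced SAUR family, which fell too, at -3.29 ± 0.17 with an interaction of -2.43 ± 0.25. HFR1, a factor of light signaling, fell as well, at -3.50 ± 0.30, as did AT4G01130, a GDSL lipase, at -3.31 ± 0.38.

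A pair of these falls rests on few arrays. DIN2, a β-glucosidase induced in the dark, gave 2.41, 2.90 and 2.09 in ga1-3/brm-1 and 8.74, 4.46 and 4.29 in brm-1. Its change of -3.36 ± 0.96 (adjusted p = 0.0415) was -1.91 without brm-1 replicate 1, and the call held only in the 3 fits that each lack 1 brm-1 array. AT2G20870, a putative cell wall protein, gave 2.74, 3.02 and 2.56 in ga1-3/brm-1 and 8.58, 6.29 and 4.22 in brm-1, a difference of -3.59 ± 1.03 (adjusted p = 0.0422), and its call held only without ga1-3 replicate 1 or 3 or brm-1 replicate 3 (-4.66 to -2.49). Of the 10 largest falls 7 were also called in ga1-3 against wt and 3 had a called interaction. The 4 of these 10 on chromosome 4, AT4G02540, UBQ11, AT4G08110 and AT4G01130, lie within 4 Mb of GA1.

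Genes close to GA1 on chromosome 4 were often called. Of 215 named probe sets within 2 Mb of GA1 (TAIR10.1), 13 rose and 23 fell, together 36 (16.7%), against 9.95% on chromosomes 1, 2, 3 and 5. Within 1 Mb the share was 11.6%, within 4 Mb 17.7%, and on the rest of chromosome 4 10.2%. In ga1-3 against wt 60 of the 215 (27.9%) were called, against 11.7% on chromosomes 1, 2, 3 and 5 and 13.5% on the rest of chromosome 4. Within 2 Mb, 26 were called in both comparisons in the same direction and 1 in opposite directions. That 1 is AT4G04940, a WD-40 repeat protein, which gave 0.91 ± 0.16 against brm-1 and -0.77 ± 0.16 against wt, with an interaction of 1.69 ± 0.23.

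Rises there included AOP3, AT4G01390, a TRAF-like protein, at 3.53 ± 0.38, ALN, an allantoinase, at 2.46 ± 0.21, RFNR1, a root ferredoxin:NADP oxidoreductase, at 1.71 ± 0.11 and PMS1, a mismatch repair protein, at 1.38 ± 0.13. Falls included AT4G02540, UBQ11 and AT4G05040, an ankyrin repeat protein, at -2.53 ± 0.15. DNA linked to ga1-3 in the line and the loss of gibberellin cannot be told apart for these genes. The same holds for AT4G08110 and AT4G01130, which are among the 10 largest falls and lie within 4 Mb of GA1. Without the named probe sets within 4 Mb, 1427 calls were left.

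**Figure D3:**
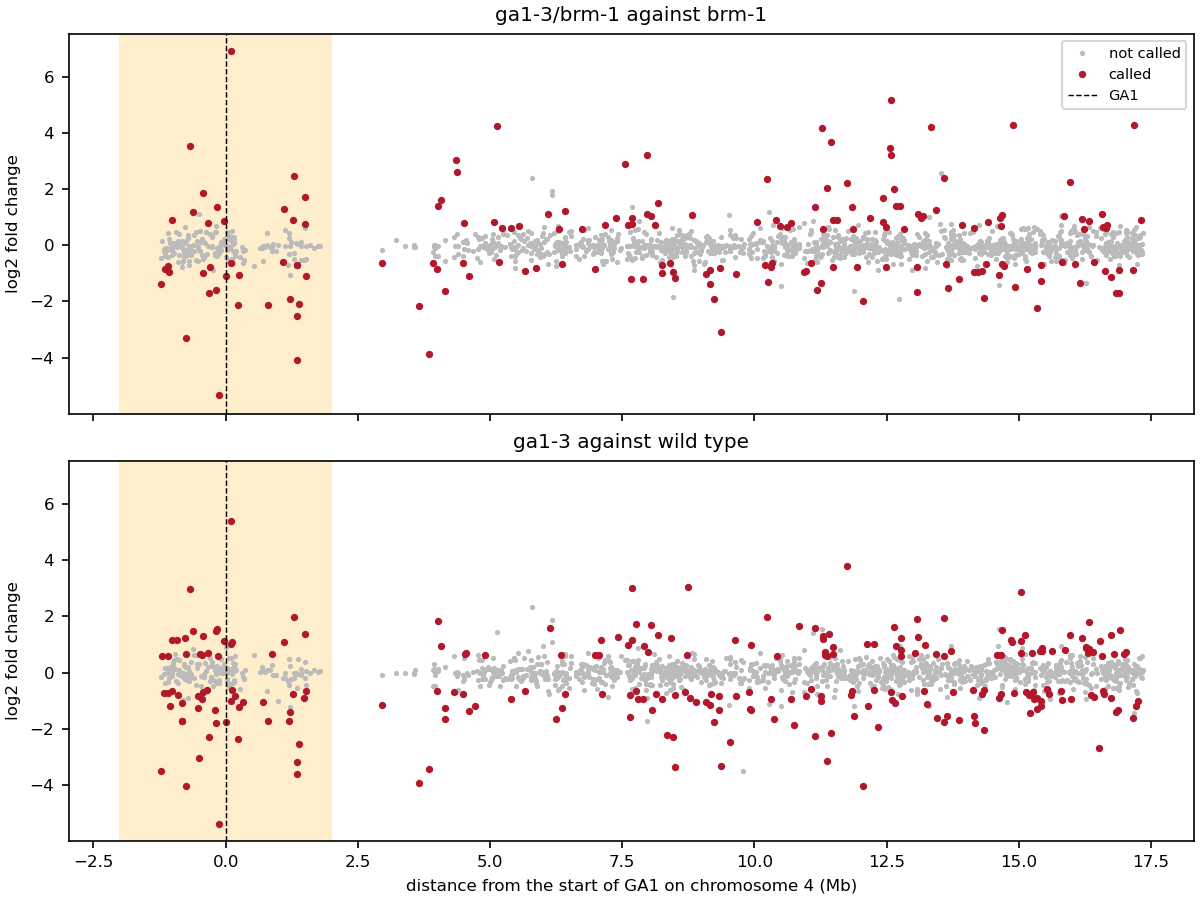
Log2 fold change of ga1-3/brm-1 against brm-1 (upper panel) and of ga1-3 against wt (lower panel) for named probe sets on chromosome 4 by distance from GA1 in Mb, with the band within 2 Mb shaded and called probe sets in red. In that band 36 of 215 probe sets were called in the upper panel and 60 in the lower, AOP3 the highest and AT4G02540 the lowest of them.

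Genes of light signaling were mostly lower in ga1-3/brm-1. Of 11 measured 9 fell and 0 rose, with a median of -1.20. For 10 of the 11 the name came through tables chosen on these samples, where 14.2% of probe sets were called down, so this list is not independent evidence of its direction. HFR1, a bHLH factor of shade and phytochrome responses, gave 4.58, 3.43 and 3.87 in ga1-3/brm-1 and 7.67, 7.60 and 7.11 in brm-1 (adjusted p = 0.000147). PRE1, a bHLH protein that promotes elongation, fell by 1.54 ± 0.18, and PKS2, a phytochrome kinase substrate, was lower at -1.51 ± 0.21. UNE10, a bHLH factor of the PIF group, gave 4.60, 4.98 and 5.04 in ga1-3/brm-1 and 6.18, 6.22 and 6.36 in brm-1, a difference of -1.38 ± 0.20, beside -3.50 ± 0.20 in ga1-3 against wt, where ga1-3 was near background (interaction 2.12 ± 0.28), and it also lies near GA1. IBH1 and HYH gave 0.04 ± 0.32 and 0.32 ± 0.31 without a call. In ga1-3 against wt 7 of the 11 fell.

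Of 14 measured clock genes 0 rose and 3 fell (median 0.03): CHE, a TCP factor that represses CCA1, at -1.17 ± 0.14, PRR7 at -0.78 ± 0.19 and PRR5 at -0.70 ± 0.20. The PRR7 call was lost without replicate 1 or 2 of ga1-3/brm-1 or of brm-1 (-1.04 to -0.58), and that of PRR5 held only without ga1-3 replicate 2 or 3 or brm-1 replicate 3 (-0.82 to -0.55). CCA1, the morning factor of the clock, gave 0.22 ± 0.28 here and -1.41 ± 0.28 against wt, and TOC1, its evening counterpart, 0.01 ± 0.23 here and 1.22 ± 0.23 against wt. Their interactions of 1.63 ± 0.39 and -1.21 ± 0.33 were among 4 that were called. That of CCA1 held only without wt replicate 2, ga1-3 replicate 3, ga1-3/brm-1 replicate 1 or 2 or brm-1 replicate 3 (1.32 to 1.89), and that of TOC1 only without ga1-3 replicate 3 or brm-1 replicate 2 (-1.50 to -1.05). In ga1-3 against wt 6 rose and 4 fell. Of the 14, 13 were named only through the study's tables of genes called against the wild type, so these counts are not independent evidence.

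FLC, the repressor of flowering, changed in opposite directions with and without BRM. It gave 6.70, 6.89 and 6.19 in ga1-3/brm-1 and 3.93, 3.97 and 5.49 in brm-1, a difference of 2.13 ± 0.37 (adjusted p = 0.00501), and 3.23, 3.31 and 3.23 in ga1-3 and 4.92, 5.49 and 5.05 in wt, a difference of -1.90 ± 0.37 (adjusted p = 0.00774). Both brm-1 and ga1-3 were near background, so the sizes of these changes are uncertain. The interaction was 4.03 ± 0.52 (adjusted p = 0.00315), and the rise was 1.86 to 2.64 in fits with 1 array left out, the higher value without brm-1 replicate 3, whose signal lies apart. In a fit of the 6 arrays alone the call of the rise was lost (adjusted p = 0.0507). SPL3, a factor of the age pathway, fell by 1.71 ± 0.21, CDF1, a repressor of CO, fell by 1.70 ± 0.22 and CO, which promotes flowering in long days, rose by 1.28 ± 0.18. CDF1 and CO had interactions of 1.42 ± 0.31 and 1.20 ± 0.26, that of CDF1 lost without ga1-3 replicate 1 (1.16 to 1.58) and that of CO without wt replicate 2 (0.98 to 1.34). SVP, a partner of FLC, gave -0.49 ± 0.16. Of 11 measured flowering genes 2 rose and 3 fell, and 5 had a called interaction. For 8 of the 11 the name came only through the study's tables, and all these rises and falls are among the 8. Of probe sets named in that way 8.32% were called up, 14.2% down and 18.1% in the interaction, so the counts are not independent evidence.

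**Figure D4:**
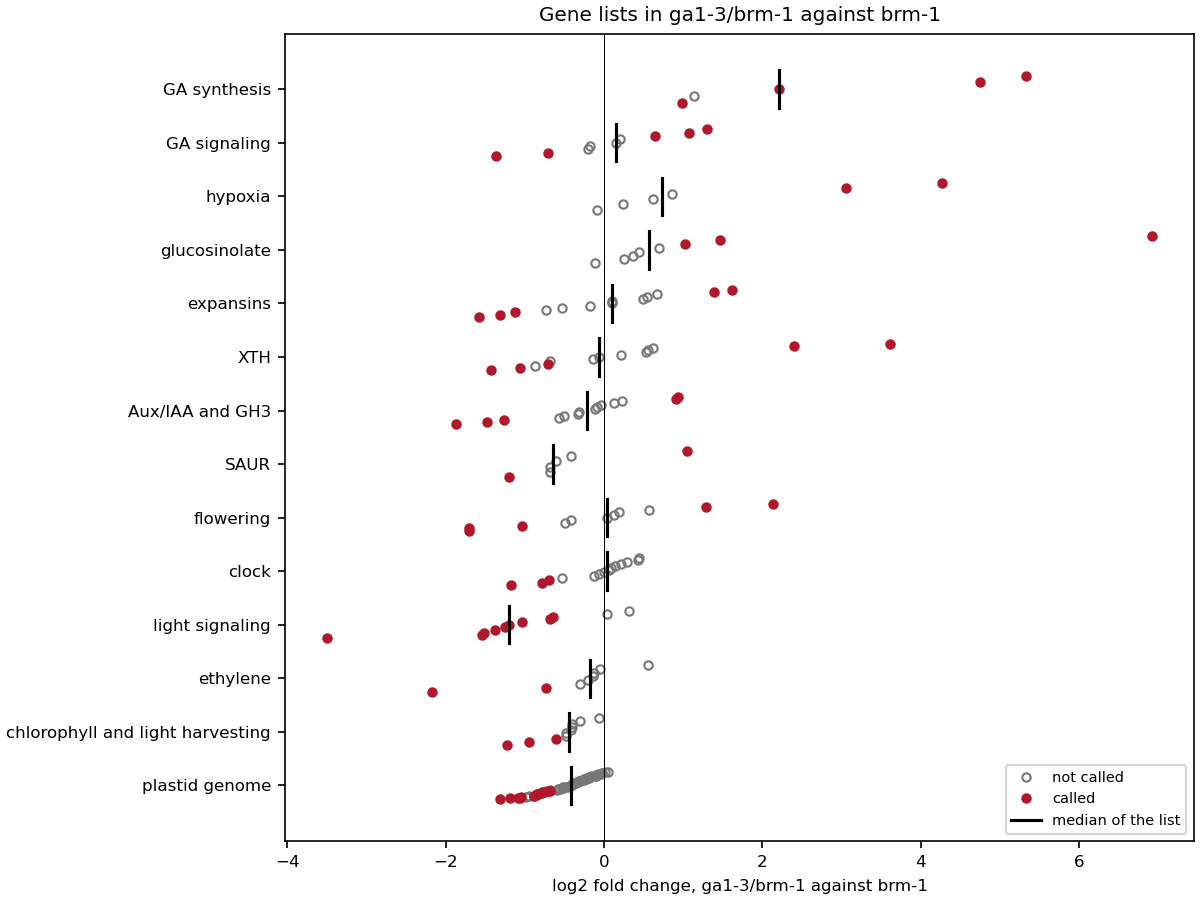
Log2 fold change of ga1-3/brm-1 against brm-1 for each measured member of the gene lists, called members filled in red, the others as open circles, and the median of each list as a bar. Light signaling had 9 of 11 members down, and plastid-encoded genes had 15 of 69 down and 0 up.

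Cell wall genes moved both ways. Of 13 expansins, which loosen walls, 2 rose, EXPA16 by 1.62 ± 0.27 and EXPB3 by 1.39 ± 0.27, and 3 fell, among them EXPA5 at -1.58 ± 0.17 and EXPA8 at -1.31 ± 0.34. EXPA5 gave 4.40, 4.50 and 4.25 in ga1-3/brm-1 and 6.01, 5.90 and 5.99 in brm-1, without overlap. EXPA1 gave -0.74 ± 0.22 (adjusted p = 0.0525). Of 13 XTH genes, xyloglucan endotransglucosylases, 2 rose and 3 fell, the falls being 1 without replicate 1 or 3 of ga1-3/brm-1 or replicate 1 or 2 of brm-1 and 5 without brm-1 replicate 3. XTH31 gave 6.27, 6.82 and 7.01 in ga1-3/brm-1 and 2.66, 3.02 and 3.60 in brm-1, a difference of 3.61 ± 0.38 with an interaction of 2.22 ± 0.54. That interaction held only without ga1-3 replicate 2 or 3, ga1-3/brm-1 replicate 1 or brm-1 replicate 3 (1.77 to 2.62). XTH19 rose by 2.40 ± 0.36, while XTH16 and XTH6 fell, at -1.43 ± 0.38 and -1.06 ± 0.27.

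Pectin enzymes, 24 probe sets, had 3 up and 4 down, with 5 up without brm-1 replicate 2. AT3G47380, an inhibitor of invertase or pectin methylesterase, fell, at -2.21 ± 0.48, as did AT1G56710, a pectin lyase-like protein, at -2.09 ± 0.25 and AT3G07010, a pectate lyase, at -0.91 ± 0.21, and PME1, a pectin methylesterase, rose by 1.11 ± 0.19. In ga1-3 against wt 4 of the 24 rose and 10 fell, and 12 of the 24 were named only through the study's tables. Among the 14 Aux/IAA and GH3 genes of auxin response, IAA29, IAA7 and IAA19 fell, at -1.87 ± 0.25, -1.48 ± 0.12 and -1.27 ± 0.20, and IAA28 rose by 0.94 ± 0.18, for 2 up and 3 down, the rises being 1 without replicate 2 or 3 of ga1-3/brm-1 or replicate 1 or 3 of brm-1. Of 6 genes with a SAUR symbol in the files, which leave out AT3G53250 above, SAUR9 rose by 1.04 ± 0.27 and SAUR63 fell by 1.20 ± 0.35. The SAUR63 call held only without ga1-3 replicate 1 or 3, and that of SAUR9 was lost without replicate 1 or 2 of ga1-3/brm-1 or of brm-1 (0.86 to 1.22). All 6 SAUR genes and 7 of the 14 Aux/IAA and GH3 genes were named only through the study's tables.

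Ethylene synthesis had 0 of 8 genes up and 2 down. ACS11, an ACC synthase, gave 2.20, 2.58 and 2.02 in ga1-3/brm-1 and 4.25, 5.57 and 3.51 in brm-1, a difference of -2.18 ± 0.43, and ACO4, an ACC oxidase, fell by 0.74 ± 0.13. ACS11 was near background in both genotypes, and its call was lost in a fit of the 6 arrays alone. In ga1-3 against wt 7 of the 8 fell, among them ACS8, which gave -0.05 ± 0.34 here and -2.67 ± 0.34 there (interaction 2.62 ± 0.48). For 7 of the 8 the name came only through the study's tables. Those list genes called against the wild type, so the count of falls against wt is not independent evidence. Of 8 glucosinolate genes 3 rose: AOP3, ESM1, which favours isothiocyanates on breakdown, by 1.46 ± 0.19, and MYB51, a regulator of indole glucosinolates, by 1.02 ± 0.28 with an interaction of 2.20 ± 0.40. The MYB51 call held only without wt replicate 1 or 2 or ga1-3 replicate 1 or 3 (0.88 to 1.11). BAS1, which inactivates brassinosteroids, rose by 1.74 ± 0.13, with signals of 6.53, 6.39 and 6.40 in ga1-3/brm-1 and 4.65, 4.90 and 4.56 in brm-1, as 1 of 6 brassinosteroid genes. MYBL2, a repressor of flavonoid synthesis, fell by 1.30 ± 0.14 as 1 of 5 flavonoid genes. All 6 brassinosteroid and 5 flavonoid genes, and 6 of the 8 glucosinolate genes, were named only through the study's tables. The trichome factor ZFP8 and the floral gene PI fell, at -1.24 ± 0.16 and -1.26 ± 0.27.

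Genes of the chloroplast fell where they were called. Of 10 nuclear genes of chlorophyll synthesis and light harvesting 3 fell and 0 rose (median -0.45), the falls being 1 without replicate 1 of ga1-3/brm-1 or of brm-1 and 5 without ga1-3/brm-1 replicate 3. The 3 were PORA, a protochlorophyllide oxidoreductase, at -1.22 ± 0.29, CAO, which makes chlorophyll b, at -0.94 ± 0.19, and GUN4, which aids magnesium chelatase, at -0.61 ± 0.16. For 7 of the 10 the name came only through the study's tables, where 14.2% were called down, and all 3 falls are among these 7. The count is thus not independent evidence. LHCB3, an antenna protein, gave -0.42 ± 0.15 without a call, and LHCA1, at -0.48 ± 0.08 (adjusted p = 0.00577), missed only the fold threshold. The genes of the plastid genome were looked at after their values were seen. Of 69 probe sets 15 fell (21.7%) and 0 rose, 67 had a negative change, and in 52 the ga1-3/brm-1 arrays all lay below the brm-1 arrays. The 15 became 6 without brm-1 replicate 1 and 7 without ga1-3/brm-1 replicate 3. Over all probe sets 34.6% did not overlap in either direction. The RNA was labelled with a 3′ IVT kit, and how well that method captures plastid transcripts was not tested.

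The median signal over the 69 was 11.06, 11.20 and 10.88 on the ga1-3/brm-1 arrays and 11.40, 11.37 and 11.29 on the brm-1 arrays, with no overlap. The largest called falls were ycf3, a photosystem I assembly factor, at -1.31 ± 0.18, rps2, a ribosomal protein, at -1.19 ± 0.19, rpoC2, a subunit of the plastid RNA polymerase, at -1.09 ± 0.18 and rpl20 at -1.06 ± 0.21, and all 4 had a negative interaction. That of ycf3 was called in all 12 fits with 1 array left out, while that of rpl20 was lost without wt replicate 3 or ga1-3 replicate 1 (-1.70 to -1.23). Those of rps2 (-1.24 to -0.89) and rpoC2 (-1.30 to -0.93) held only without wt replicate 3, ga1-3 replicate 2 or 3, ga1-3/brm-1 replicate 2 or brm-1 replicate 3. The median change was -0.41 here and -0.08 in ga1-3 against wt, where 0 were called. In brm-1 against wt 19 rose and 0 fell (median 0.41), and in ga1-3/brm-1 against wt the median was -0.03. These comparisons share the brm-1 or the wt arrays. Of 24 probe sets of the mitochondrial genome 0 were called, with a median of 0.11.

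The calls made with and without BRM overlapped in part. Of the 1468 calls against brm-1, 442 (30.1%) were also among the 1474 calls of ga1-3 against wt (8.79% of all probe sets, 4.06% up and 4.74% down), of which they are 30.0%. They moved the same way in 388, with 162 up and 226 down, and opposite ways in 54. In the 54 the interaction was called for each, and in 29 of the 388. Opposite changes add up in the interaction, so its calls in the 54 largely follow from how these were chosen. Across the 16764 probe sets the log2 fold changes of the comparisons had r = 0.31 (Pearson) and rho = 0.20 (Spearman), a description across genes, which are not independent replicates. Probe sets called up in ga1-3 against wt had a median of 0.25 here and 0.94 there, and those called down -0.34 here and -0.99 there. Probe sets called up against brm-1 had a median of 1.01 here and 0.16 there, and those called down -0.88 here and -0.44 there. In each case the larger median is that of the comparison that chose the probe sets, so these medians do not show which response was weaker.

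The interaction tests the difference itself. It was called, on the adjusted p alone, for 1492 probe sets (8.90%), 741 positive and 751 negative, or 8.78% of those named by the platform table and 18.1% of those named only through the tables. Of the calls against brm-1, 482 (32.8%) had it, made up of 339 rises with a positive and 122 falls with a negative interaction, and of 10 rises with a negative and 11 falls with a positive one. The interaction contains the change against brm-1 by which these were chosen. Its sign therefore leans to that of the call by construction, and these counts are a description only. In 236 rises with a positive interaction the change against wt was under 0.5 either way, 40 of them over 4-fold in ga1-3/brm-1. Of the 1026 called against brm-1 but not against wt, the interaction was called for 399, and for the other 627 the difference between the responses did not pass the test. How far the lower starting GA level of plants without BRM bears on the interaction was not tested.

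The largest positive interactions were AT2G17850 at 5.84 ± 0.81, DIC2, a mitochondrial dicarboxylate carrier, at 5.81 ± 0.73, AT4G39675 at 5.73 ± 0.74, AT2G22880, a VQ motif protein, at 5.63 ± 0.66, PS2, a phosphatase induced on phosphate starvation, at 5.48 ± 1.44 and AT3G29970 at 5.40 ± 0.58. DIC2 gave 9.06, 8.60 and 9.45 in ga1-3/brm-1 and 6.38, 5.24 and 4.49 in brm-1, against 4.44, 4.77 and 5.39 in ga1-3 and 6.49, 6.53 and 8.01 in wt. It rose in the first pair and was lower in the second, at 3.67 ± 0.52 and -2.14 ± 0.52. PS2 was called at 3.60 ± 1.02 (adjusted p = 0.0401), but the call held only without ga1-3 replicate 2 or 3 or brm-1 replicate 1 (2.79 to 4.88), and its interaction only without ga1-3 replicate 3 or brm-1 replicate 1. Of 44 named interactions 20 were called in all 12 fits.

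The largest negative interactions, most of which rest on few arrays, were AIG1, a GTP-binding protein induced in defence, at -3.65 ± 0.89, AT1G52770, an NPH3 family protein, at -3.51 ± 0.44, CHI (AT2G43570), a putative chitinase, at -3.35 ± 0.91, GLYI7, a glyoxalase, at -3.27 ± 0.67, COR27, induced by cold and tied to the clock, at -2.99 ± 0.78 and AT4G32870 at -2.96 ± 0.81. AIG1 gave 6.06, 6.55 and 3.76 in ga1-3/brm-1 and 4.80, 4.63 and 5.68 in brm-1, against 7.42, 8.56 and 7.26 in ga1-3 and 3.80, 3.48 and 3.77 in wt. Its interaction was lost in 7 of the 12 fits with 1 array left out, and held without ga1-3 replicate 3, any 1 of the ga1-3/brm-1 arrays or brm-1 replicate 2 (-4.20 to -2.80). That of CHI (AT2G43570) held only without brm-1 replicate 3 (-3.82 to -2.65), that of COR27 only without ga1-3 replicate 3 or brm-1 replicate 2 (-3.74 to -2.48), and that of AT4G32870 only without replicate 2 of ga1-3/brm-1 or of brm-1 (-3.53 to -2.23). Those of AT1G52770 and GLYI7 were called in all 12. The change of AIG1 was 0.41 ± 0.63 here (adjusted p = 0.729) and 4.07 ± 0.63 against wt (adjusted p = 0.00257).

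**Figure D5:**
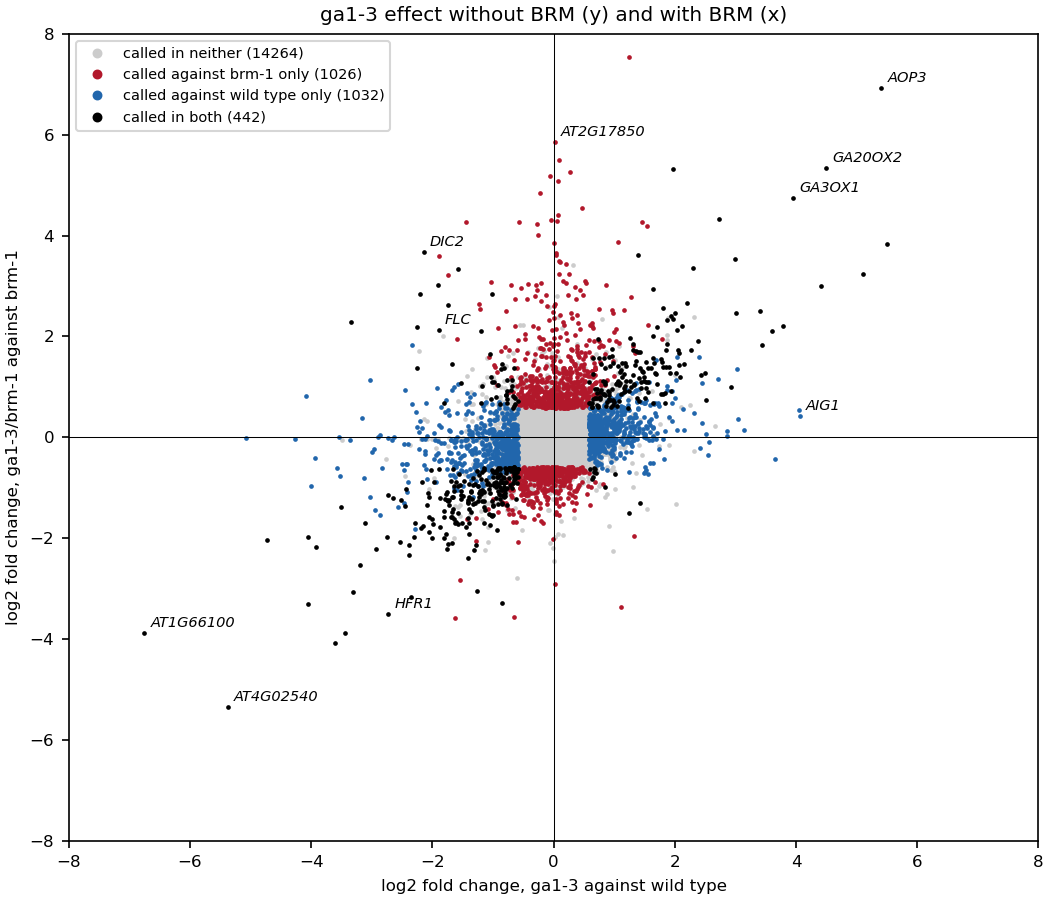
Log2 fold change of ga1-3/brm-1 against brm-1 plotted on that of ga1-3 against wt for each probe set, with calls of either comparison coloured. GA20OX2 and GA3OX1 lie high on both axes, FLC and DIC2 are higher without BRM and lower with it, and r was 0.31 over 16764 probe sets.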

How the data were processed

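RNA of shoots from seedlings aged 18 days was hybridized to 12 ATH1 arrays, 3 per genotype. The methods speak of 3 biological replicates. The labels do not say how the cultures were separated, so p-values measure the spread between these samples. The authors deposited log2 GC-RMA signals, and the submitters' processing notes name GCRMA and Partek. Their detection filter (present on at least 1 of the 3 arrays of a genotype) had already been applied to the 16824 probe sets. No further normalization was used. Arrays have no read depth, and their number limits the precision.

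In R 4.3.3 with limma 3.58.1, lmFit and eBayes were run on the 12 arrays together, with no term but genotype, over 16764 probe sets after 60 controls were left out. The methods name a 2-factor model without naming its second factor, so it was not included. The scripts were tested on simulated data. The interaction was called on the adjusted p alone.

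The platform table gave 1 gene for 9267 probe sets and several for 358, and the study's tables, which list only genes called against the wild type, gave 1 gene for 1671 more and several for 29, while 5439 had no name. Their fold changes and p-values were not used. TAIR10.1 positions were found for 10929 probe sets and served only to find the neighbours of GA1. No sequence was used.

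Members, lists and the rule for named genes were chosen with earlier results of these data known. The rule took genes of the GA pathway and those the study names, the 10 largest rises and falls among calls with 1 gene and no overlap of arrays, up to 4 called members of each list with 1 or 2 not called, and the 6 largest interactions each way. The plastid and mitochondrial lists, the XTH, SAUR, Aux/IAA, JAZ and pectin lists as drawn from gene names and descriptions, the largest rise without a name and the genes named near GA1 fall outside it and were chosen after their values were seen. Alternatives changed the scaling, the variance estimate, the arrays fitted, the filter and the thresholds.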

Additional observations from a re-analysis of the deposited data

Results flagged for a closer look

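The log2 fold change of ga1-3/brm-1 against brm-1 differed from that of ga1-3 against wt for 1492 probe sets by the interaction test in limma (adjusted p under 0.05). All results here were picked out because the response to ga1-3 differed between shoots without and with BRM. The part of the lower starting GA level of plants without BRM in these differences was not tested. Each value below is the log2 fold change without BRM minus that with BRM, and 20 of the 44 named below were called in all 12 fits that each leave out 1 array.

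Among named genes, the positive differences of the upper range were AT2G17850 5.84, DIC2 5.81, AT4G39675 5.73, AT2G22880 5.63, PS2 5.48, AT3G29970 5.40, AT4G27654 5.24, AT5G66985 4.98, AT4G33560 4.35, FLC 4.03, AT1G66100 2.88, HRA1 2.86 and AT4G10270 2.81. The smaller positive ones were ACS8 2.62, XTH31 2.22, MYB51 2.20, UNE10 2.12, AT4G04940 1.69, CCA1 1.63, AOP3 1.52, CDF1 1.42, PME1 1.34, CO 1.20, PME3 1.13, ACO4 0.83 and GA3 0.77. The negative differences were AIG1 -3.65, AT1G52770 -3.51, CHI (AT2G43570) -3.35, GLYI7 -3.27, COR27 -2.99, AT4G32870 -2.96, WSD1 -2.91, AT3G53250 -2.43, ycf3 -1.68, CYS2 -1.62, GA20OX1 -1.58, rpl20 -1.43, PRR5 -1.29, TOC1 -1.21, rpoC2 -1.11, rps2 -1.08, GAMT2 -0.75 and CHC1 -0.58.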

How the results depend on the processing

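No named call and no named interaction call changed direction under the alternatives run, while 13 named results that were not called, such as AIG1 and CCA1, changed sign when 1 array was left out. The 1468 calls against brm-1 became 896 (527 up, 369 down) in a fit of the 6 arrays alone, 664 (421 up, 243 down) at a fold over 2, 2408 (1180 down) with no fold threshold and 691 (412 up, 279 down) at an adjusted p under 0.01. With 1 array left out the calls ran from 1007 to 1579, the rises from 573 to 879, the falls from 431 to 700. Quantile normalization gave 1466, median centring 1492, ordinary variance 1050, an intensity trend 1500 and a filter on low values 1264. The 442 calls shared with ga1-3 against wt became 219 at a fold over 2, 669 with no fold threshold and 186 at an adjusted p under 0.01, and 335 to 476 with 1 array left out. Those in the same direction (388) became 200 at a fold over 2 and 177 at an adjusted p under 0.01, and 307 to 405 with 1 array left out. The 36 calls near GA1 became 22 at a fold over 2 and 30 to 43 with 1 array left out.

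The count of interactions moved with single arrays. Its 1492 calls became 283 at an adjusted p under 0.01 and between 795 (without ga1-3 replicate 1) and 1766 (without brm-1 replicate 3) with 1 array left out. They were 903 without wt replicate 2, 844 without wt replicate 3, 963 without ga1-3 replicate 2, 911 without ga1-3/brm-1 replicate 1 and 842 without brm-1 replicate 1. The cause was not tested.

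Same-numbered arrays of ga1-3/brm-1 and brm-1 had little deviation in common over all probe sets (correlations of 0.12, -0.05 and 0.08). The labels do not say whether they share a culture or a batch, and these correlations of 1 pair of genotypes cannot decide it. With the replicate block 1287 calls were made against brm-1 and 969 in the interaction.

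Of 89 named calls 70 held in all 12 fits with 1 array left out, 17 were lost with ordinary variance and 22 with the 6 arrays alone. EXPA8, XTH16, XTH6, PORA, GUN4 and AT3G07010 lost their call without some arrays of ga1-3/brm-1 and of brm-1, and GLYI7 without ga1-3/brm-1 replicate 1 or 3. Of 44 named interactions 20 held in all 12 fits, and 18 were lost with ordinary variance and 15 with the replicate block. The number of arrays limits the precision.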

Other observations

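Several lists had no call in ga1-3/brm-1 against brm-1. Of 5 cold and dehydration genes 0 were called, with COR47 at -0.92 ± 0.48 and COR15B at 0.77 ± 0.61. Of 3 salicylic acid genes 0 were called, with the pathogenesis-related gene PR1 at -0.42 ± 0.90, and of 3 jasmonic acid genes 0, with the defensin PDF1.2 at 0.77 ± 0.43. The 8 SWI/SNF and chromatin genes had 0 calls and a range of -0.40 to 0.30. Their member CHC1 gave -0.40 ± 0.10 (adjusted p = 0.0285), short of the fold threshold only, and BSH -0.02 ± 0.14. The 4 cell cycle genes had 0 calls, with CYCD3;1 at -0.38 ± 0.27, and JAZ6, a repressor of jasmonate response and the only JAZ gene named, gave -0.17 ± 0.27.

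Other members of called lists that were not called were SAUR68 at -0.68 ± 0.35, IAA2 at -0.32 ± 0.20, XTH33 at -0.87 ± 0.78, MYB28 at 0.37 ± 0.27, TTG1 at -0.15 ± 0.10, TRY at -0.40 ± 0.16, SEP3 at -0.64 ± 0.44 and PME3 at 0.73 ± 0.22. DWF1, at -0.51 ± 0.12 (adjusted p = 0.0184), missed only the fold threshold. Of the plastid genes psaA gave -0.95 ± 0.90 (adjusted p = 0.539) and atpB -0.03 ± 0.08. No seed marker of 8 listed was named here.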
